A study of Mus musculus with 6 samples.

Results

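The genes described here are 34 genes of mitochondrial pyruvate use, the tricarboxylic acid (TCA) cycle and the reactions that feed or drain it. They were taken by symbol from a fixed list, with no measured value in the rule. The deposited table had 24532 genes and held all 34. All 34 also passed the filter on low counts, which kept 13801 genes for testing.

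RNA was sequenced from the gastrocnemius (GAS) muscle, a mixed hind limb muscle, of 6 male C57BL/6 mice of about 20 weeks, with 1 library per animal. The 3 animals labelled WT carried floxed *Sirt6* alleles (*Sirt6* flox/flox) and no Cre. The 3 animals labelled *Sirt6* KO carried the same floxed alleles together with *Myl1-Cre*, in which the myosin light chain 1 promoter drives the recombinase. That promoter acts mainly in postmitotic type II (fast) fibers, so slow fibers and the non-muscle cells of the tissue may keep *Sirt6*. Sirt6 is a nuclear NAD-dependent deacylase. The comparison asks which transcripts of this pathway differ between muscle with and without the deletion.

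Pyruvate made by glycolysis enters mitochondria through a carrier of paired subunits and is turned into acetyl-CoA by the pyruvate dehydrogenase (PDH) complex. Kinases switch that complex off by phosphorylating its E1 subunit, and phosphatases switch it back on. Acetyl-CoA then joins oxaloacetate to form citrate, and the cycle oxidizes citrate in steps back to oxaloacetate while reducing NAD for the respiratory chain. Carboxylase, malic enzyme, aminotransferase and glutamate dehydrogenase reactions add or remove intermediates. Oxidative fibers are rich in these enzymes, and contracting muscle raises PDH activity when its phosphatase is activated by calcium.

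Library totals lay between 44845763 and 63016899 counts. As the check of the genotype, *Sirt6* had 2.77, 2.23 and 2.88 CPM (read counts scaled to library size) under the WT label and 7.81, 7.44 and 6.68 CPM under the *Sirt6* KO label. The counted transcript therefore went up, against the direction the labels name (log2 fold change 1.48, SE 0.17, edgeR with Benjamini-Hochberg adjusted p = 0.0113). This call was lost without *Sirt6* KO 1 or *Sirt6* KO 3, with an adjusted p of up to 0.065. A count per gene does not separate the floxed exons from the rest of the transcript, and it measures RNA and not protein. It therefore cannot show whether the deletion took place. The group names below are those of the labels. The summed level of 8 skeletal muscle markers was 128704 to 203394 CPM over the 6 libraries, and none of the 8 was at 0. *Myh4* was the largest term of that sum in every library, and *Myh2* and *Mb* were among the smaller ones. Libraries of one group were not alike in slow-fiber content. The sum of 8 slow-fiber genes, from *Myh7* to *Myoz2*, was 3712, 3100 and 142 CPM in WT 1, 2 and 3, and 370.0, 2185 and 517 CPM in *Sirt6* KO 1, 2 and 3. None of these 8 genes was at 0 in any library, and between groups 0 of the 8 passed edgeR's test or DESeq2's, with 0 at an unadjusted p under 0.05 in edgeR. The third WT library thus stood apart from the other 2, and values without it are given beside each result it changes. *Sirt6* KO 2 likewise stood apart from *Sirt6* KO 1 and 3. A fit without WT 3 alone sets WT libraries high in this sum against *Sirt6* KO libraries of which only *Sirt6* KO 2 was high. The part of fiber content in the calls which that fit adds was not tested.

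CPM values were scaled between libraries by trimmed means (TMM). A log2 fold change is *Sirt6* KO minus WT, fitted by edgeR's quasi-likelihood test on counts, and a gene was called when its p, adjusted by the Benjamini-Hochberg method over all 13801 genes, was under 0.05. Log2 fold changes went up with the GC content of the transcript over 13711 genes (Spearman rho 0.334, a description across genes, which are not independent replicates), so values are also given after a GC correction, in which each library's trend with GC is removed before the test. "Lower" and "higher" refer to the *Sirt6* KO libraries. By this rule 3 of the 34 genes were lower (8.82%) and 2 were higher (5.88%), against 8.39% and 7.85% of all genes tested. Both shares lay near those of all genes. Their directions were less even. A negative log2 fold change was seen for 27 of the 34 genes (79.4%), against 51.6% of all genes, and the median log2 fold change was -0.27, against -0.021 over all genes. No test was made of this difference. The median deviation of the 34 genes from their group mean had an SD of 0.16 (log2) over the 6 libraries. Their share of all counts was 1.36%, 1.49% and 0.930% in WT 1, 2 and 3, and 0.927%, 1.22% and 1.00% in *Sirt6* KO 1, 2 and 3, so the groups overlapped. The genes are not independent replicates. The 3 lower genes were *Mpc2*, *Dlat* and *Dld*, and the 2 higher genes were *Pdp1* and *Me3*. In bulk tissue, fewer fibers of a type and less RNA per fiber cannot be told apart.

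**Figure D1:**
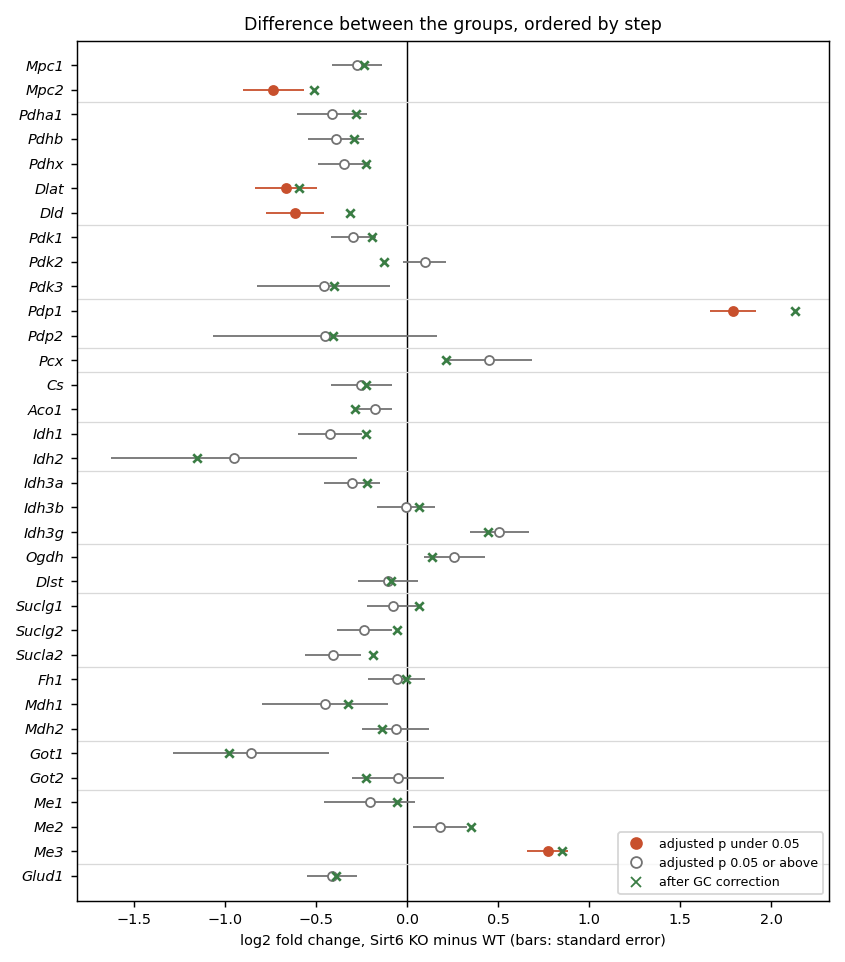
Log2 fold change (x axis, *Sirt6* KO minus WT, bars are standard errors) of each of the 34 genes (y axis, ordered by step). Filled points passed the test, open points did not, and crosses are values after a correction for GC content; *Pdp1* stands furthest to the right at 1.79 and 27 of the 34 points lie left of 0.

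The levels of the 34 genes differed far more between genes than between groups. On the TPM scale, which is per length and sums to a fixed total in each library, the mean over all 6 libraries ran from 0.735 for *Pdk3* to 1395 for *Mdh2*. After *Mdh2* came *Pdha1* (799.98 TPM), *Mdh1* (763 TPM) and *Cs* (704 TPM). The 3 subunits of NAD-dependent isocitrate dehydrogenase followed with means between 606 and 666 TPM. In WT their means lay between 580 ± 133 and 695 ± 112 TPM (SD, n = 3), within the spread between libraries. Even so, *Idh3g* was the lowest of the 3 subunits in each WT library. In *Sirt6* KO the means ran from 517 ± 57.5 TPM for *Idh3a* to 751 ± 75.2 TPM for *Idh3g*. The lowest levels were those of *Idh1* (13.2 TPM), *Aco1* (9.75 TPM), *Pdp2* (4.84 TPM), *Me2* (4.17 TPM) and *Pdk3*. Deposited FPKM values gave the same order apart from *Pdk2* and *Got1*, at places 14 and 15, which changed places. Summed over the list, TPM values came to 14128, 15421 and 9291 in WT 1, 2 and 3, and to 9037, 11736 and 9692 in *Sirt6* KO 1, 2 and 3. The third WT library fell within the *Sirt6* KO range, so the groups overlapped.

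**Figure D2:**
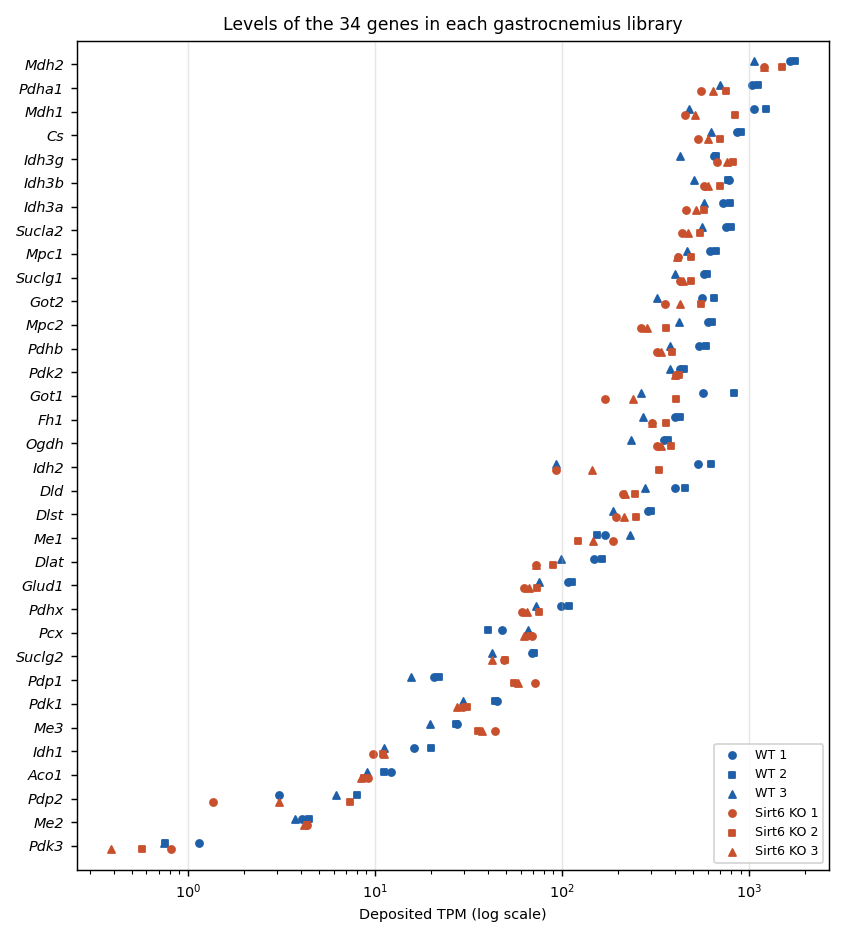
Deposited TPM (x axis, log scale) of the 34 genes (y axis, ordered by mean level) in each of the 6 libraries, WT in blue and *Sirt6* KO in orange, with a shape for each replicate. Levels span from *Pdk3* at a mean of 0.735 to *Mdh2* at 1395, and *Pdp1* and *Me3* are among the rows in which all orange points lie right of the blue points.

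Of the mitochondrial pyruvate carrier subunits, *Mpc2* fell and *Mpc1* did not pass the test. *Mpc2* (NCBI gene 70456, chr1:165461260-165481218, GRCm38) had 215, 238 and 188 CPM in the WT libraries and 107, 155 and 122 CPM in the *Sirt6* KO libraries. The groups did not overlap. The level went from 214 ± 25.4 to 128 ± 24.3 CPM (SD, n = 3), a log2 fold change of -0.74 (SE 0.17, edgeR with Benjamini-Hochberg adjusted p = 0.0301), or 1.67-fold lower. *Mpc1* was at 239 ± 26.2 and 197 ± 22.4 CPM (SD, n = 3) and its groups overlapped (log2 fold change -0.28, SE 0.14, edgeR with Benjamini-Hochberg adjusted p = 0.194). *Mpc1* shares 480 exon bases with a gene on the opposite strand, 4930506C21Rik. Whether counting used the strand is not given in the sources used here, and without strand their reads cannot be told apart.

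The *Mpc2* call depended on which libraries entered the fit. Without WT 3 it held (edgeR with Benjamini-Hochberg adjusted p = 0.015), as it did without *Sirt6* KO 2 (adjusted p = 0.0399). It was lost without WT 1 (adjusted p = 0.0898), WT 2 (0.0974), *Sirt6* KO 1 (0.105) or *Sirt6* KO 3 (0.123), while the log2 fold change stayed between -0.88 and -0.62. It was also lost after the correction for GC content (log2 fold change -0.51, edgeR with Benjamini-Hochberg adjusted p = 0.0956). On the TPM scale the ratio of *Mpc1* to *Mpc2* was 1.02, 1.06 and 1.09 in WT and 1.58, 1.35 and 1.45 in *Sirt6* KO. The paired subunits were thus near parity in each WT library and *Mpc1* exceeded *Mpc2* in each *Sirt6* KO library. TPM values are not corrected for GC content, which is 48.0% for *Mpc1* and 43.2% for *Mpc2*. The correction took the fitted log2 fold changes closer together, to -0.24 for *Mpc1* and -0.51 for *Mpc2*.

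All 5 genes of the PDH complex had negative log2 fold changes, with a median of -0.41, and 2 of the 5 fell: *Dlat*, the E2 acetyltransferase core, and *Dld*, the E3 dihydrolipoamide dehydrogenase that PDH shares with the 2-oxoglutarate complex. *Dlat* (NCBI gene 235339, chr9:50634633-50659780) had 248, 291 and 207 CPM in the WT libraries and 139, 182 and 148 CPM in the *Sirt6* KO libraries. Its mean went from 248.5 ± 42.3 to 156 ± 22.7 CPM (SD, n = 3; log2 fold change -0.67, SE 0.17, edgeR with Benjamini-Hochberg adjusted p = 0.0391), 1.59-fold lower. *Dld* (NCBI gene 13382, chr12:31331562-31351471) had 379, 456 and 328 CPM against 229, 280.3 and 248 CPM. Its mean went from 388 ± 64.6 to 253 ± 25.8 CPM (SD, n = 3; log2 fold change -0.62, SE 0.16, edgeR with Benjamini-Hochberg adjusted p = 0.0408), 1.53-fold lower. In both genes every *Sirt6* KO library lay under every WT library.

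The remaining subunits did not pass the test. *Pdha1*, the catalytic E1 alpha subunit, was at 1225 ± 193 and 919.6 ± 166 CPM (log2 fold change -0.41, SE 0.19). *Pdhb*, E1 beta, had a log2 fold change of -0.39 (SE 0.16), and *Pdhx*, the protein that tethers E3 to the core, one of -0.35 (SE 0.14). For these 3 genes the edgeR Benjamini-Hochberg adjusted p lay between 0.121 and 0.169, and the groups overlapped. *Pdha1* shares 603 exon bases on the opposite strand with *Map3k15*, which was far lower in level, at 2.83 ± 0.192 and 1.45 ± 0.142 CPM.

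For *Dlat* and *Dld* the call held in only 1 of the 6 fits that left a library out, the one without WT 3, where the edgeR Benjamini-Hochberg adjusted p was 0.0123 for *Dlat* and 0.0115 for *Dld*. In that fit *Pdhb* also passed (log2 fold change -0.49, edgeR with Benjamini-Hochberg adjusted p = 0.0367). Without any other single library the adjusted p lay between 0.0581 and 0.146 for *Dlat* and between 0.0721 and 0.147 for *Dld*. Direction stayed the same throughout, with log2 fold changes of -0.78 to -0.54 for *Dlat* and -0.72 to -0.48 for *Dld*. The GC correction took *Dlat* to -0.60 (edgeR with Benjamini-Hochberg adjusted p = 0.0691) and *Dld*, whose longest transcript has 40.6% GC, to -0.31 (adjusted p = 0.244). *Dlat* also missed the threshold in both limma fits (limma with Benjamini-Hochberg adjusted p = 0.0523 and 0.0674). *Dld* missed it without a filter on low counts (edgeR with Benjamini-Hochberg adjusted p = 0.0513) and in limma on log2(FPKM + 0.1) (adjusted p = 0.0589).

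*Dlat* and *Dld* both fell, and the 250 bases before their annotated starts are shown for that reason. The third sequence is that of *Ogdh*, which holds a cAMP response element (CRE), the palindrome TGACGTCA bound by CREB, a factor the study examined. Sequences are from RefSeq on GRCm38.p6, written 5′ to 3′ on the strand of the gene, and capitals mark the CRE.
Dlat, chr9:50659781-50660030, minus strand: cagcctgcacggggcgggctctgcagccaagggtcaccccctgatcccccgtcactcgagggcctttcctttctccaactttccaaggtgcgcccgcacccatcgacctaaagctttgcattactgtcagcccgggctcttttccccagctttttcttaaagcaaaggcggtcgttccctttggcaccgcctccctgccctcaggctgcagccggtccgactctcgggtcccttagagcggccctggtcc
Dld, chr12:31351472-31351721, minus strand: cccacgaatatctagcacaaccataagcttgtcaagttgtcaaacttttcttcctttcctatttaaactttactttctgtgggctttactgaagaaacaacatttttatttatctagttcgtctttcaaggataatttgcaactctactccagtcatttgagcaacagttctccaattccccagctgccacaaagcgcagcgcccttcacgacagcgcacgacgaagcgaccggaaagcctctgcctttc
Ogdh, chr11:6291347-6291596, plus strand: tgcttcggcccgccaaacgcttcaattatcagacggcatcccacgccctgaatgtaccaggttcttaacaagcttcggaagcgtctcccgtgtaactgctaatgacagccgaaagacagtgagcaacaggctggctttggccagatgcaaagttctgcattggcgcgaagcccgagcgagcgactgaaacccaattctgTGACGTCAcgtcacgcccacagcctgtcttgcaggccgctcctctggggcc
The *Ogdh* element begins 51 bases before that start. 3 motifs were searched on both strands in windows from 250 bases before to 50 bases after each start, and none of the 3 contains another. The CRE was in a window of 2 of the 31 genes of the list that have one, *Ogdh* and *Mdh2*, against 549 of all 27025 genes (2.03%). The GABP motif CCGGAAGT was in 1, *Dlst*, against 4.31% of all genes. The motif TCAAGGTCA of estrogen-related receptors was in none, against 0.466% of all genes. A match describes letters in a window and nothing about binding.

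Among the enzymes that regulate PDH, *Pdp1*, the calcium-activated phosphatase that switches the complex on, rose, and none of the 3 kinases listed (*Pdk1*, *Pdk2* and *Pdk3*) passed the test. *Pdp1* (NCBI gene 381511, chr4:11958183-11966450) had 36.0, 40.8 and 33.9 CPM in the WT libraries and 143, 117 and 123 CPM in the *Sirt6* KO libraries. The lowest *Sirt6* KO library was above the highest WT library by a wide margin. The mean went from 36.9 ± 3.55 to 128 ± 13.5 CPM (SD, n = 3), a log2 fold change of 1.79 (SE 0.13, edgeR with Benjamini-Hochberg adjusted p = 0.00873), or 3.46-fold higher. By p it took place 2 of the 13801 genes tested. The call held in all 15 alternative fits. Leaving out a library gave 1.70 to 1.87, and the GC correction gave 2.13 (edgeR with Benjamini-Hochberg adjusted p = 0.00319), the *Pdp1* transcript having 39.2% GC.

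The second phosphatase, *Pdp2*, was low and variable, at 4.51, 12.4 and 11.2 CPM in the WT libraries and 2.27, 12.9 and 5.41 CPM in the *Sirt6* KO libraries (log2 fold change -0.45, SE 0.61, edgeR with Benjamini-Hochberg adjusted p = 0.634), and leaving out a library moved its log2 fold change between -1.28, without *Sirt6* KO 2, and -0.033, without *Sirt6* KO 1. *Pdk2* was the most abundant of the 3 kinases listed, with 416 ± 35.7 TPM in WT and 410 ± 10.8 TPM in *Sirt6* KO. Its log2 fold change was 0.095 (SE 0.12, edgeR with Benjamini-Hochberg adjusted p = 0.598) and turned to -0.13 after the GC correction. *Pdk1*, at 92.3 ± 11.2 and 75.1 ± 4.70 CPM, had a log2 fold change of -0.30 (SE 0.12, edgeR with Benjamini-Hochberg adjusted p = 0.133) and passed only without WT 3 (adjusted p = 0.0215). *Pdk3* stayed under 1 CPM in every library, with 0.962, 0.679 and 0.785 CPM against 0.786, 0.577 and 0.399 CPM. Within each library, the TPM ratio of *Pdp1* to *Pdk2* was 0.0483, 0.0492 and 0.0414 in WT and 0.175, 0.131 and 0.145 in *Sirt6* KO. *Pdp1* therefore remained well under *Pdk2* in transcript number in every library, although the gap was smaller in each *Sirt6* KO library.

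**Figure D3:**
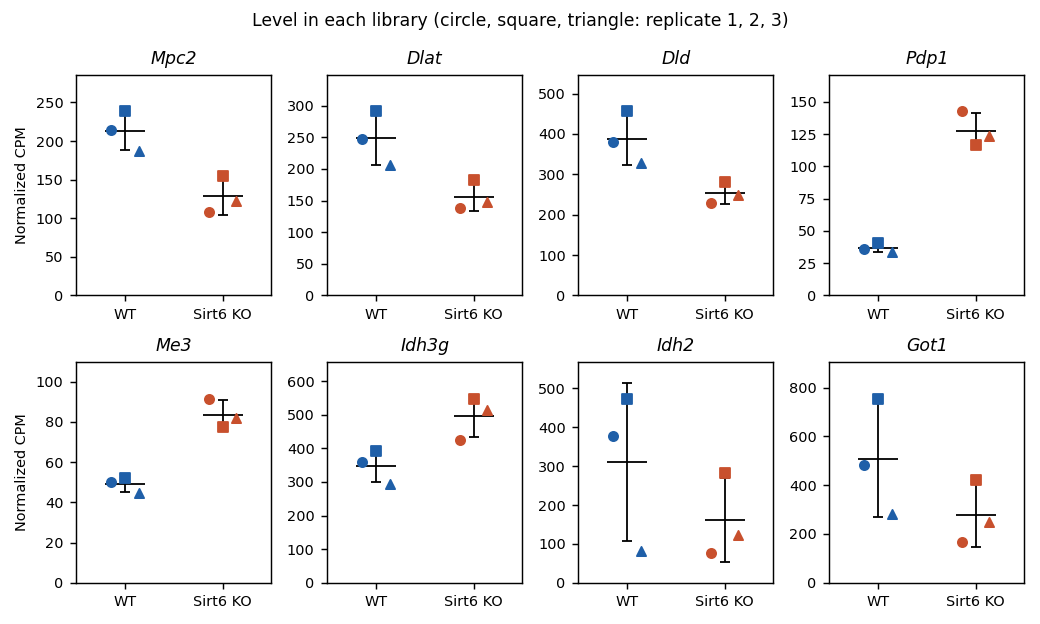
TMM-normalized CPM (y axis, from 0) of 8 genes in each library, WT in blue and *Sirt6* KO in orange, with a shape for each replicate (circle 1, square 2, triangle 3), a line at the mean and bars of 1 SD (n = 3). The groups are apart for *Mpc2*, *Dlat*, *Dld*, *Pdp1*, *Me3* and *Idh3g*, and overlap for *Idh2* and *Got1*, in which the third WT library is low.

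*Pcx* encodes pyruvate carboxylase, which makes oxaloacetate from pyruvate. It had 82.1, 74.1 and 141 CPM in the WT libraries and 136, 140.1 and 131 CPM in the *Sirt6* KO libraries. The third WT library was the highest of all 6, and the groups overlapped (log2 fold change 0.45, SE 0.24, edgeR with Benjamini-Hochberg adjusted p = 0.218). Without that library the log2 fold change was 0.80 (SE 0.092, edgeR with Benjamini-Hochberg adjusted p = 0.00509). The GC correction with all 6 libraries took it to 0.21.

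None of the genes from citrate synthase to 2-oxoglutarate passed the test. *Cs*, citrate synthase, had 1053, 1181 and 947 CPM in WT and 748, 1025 and 896 CPM in *Sirt6* KO, with overlapping groups (log2 fold change -0.25, SE 0.17, edgeR with Benjamini-Hochberg adjusted p = 0.319). *Aco1*, the cytosolic aconitase that also acts as an iron regulatory protein, had 21.8, 21.3 and 20.2 CPM against 18.8, 18.9 and 18.2 CPM. Its groups were apart by a small step (log2 fold change -0.18, SE 0.096, edgeR with Benjamini-Hochberg adjusted p = 0.221). *Idh1*, the cytosolic NADP-dependent isocitrate dehydrogenase, had 15.3, 20.0 and 13.0 CPM against 10.6, 12.6 and 12.8 CPM, and its groups were apart by less than 1 CPM (log2 fold change -0.43, SE 0.18, edgeR with Benjamini-Hochberg adjusted p = 0.135). It passed without WT 3 (adjusted p = 0.0378).

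*Idh2*, the mitochondrial NADP-dependent isocitrate dehydrogenase, had the most negative log2 fold change of the 34 genes and one of the widest spreads. Its levels were 377, 474 and 81.9 CPM in WT 1, 2 and 3 and 75.3, 282 and 124 CPM in *Sirt6* KO 1, 2 and 3. The fit gave -0.95 with an SE of 0.67 (edgeR with Benjamini-Hochberg adjusted p = 0.345), and leaving out a library moved it between -1.63 and -0.51. Without WT 3 the log2 fold change was -1.40 (SE 0.51, edgeR with Benjamini-Hochberg adjusted p = 0.0798). High and low libraries of *Idh2* were those high and low in the slow-fiber sum, which was 3712, 3100 and 142 CPM in WT and 370.0, 2185 and 517 CPM in *Sirt6* KO. The part of fiber content in the *Idh2* value was not tested.

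The NAD-dependent isocitrate dehydrogenase of the cycle is built from alpha (*Idh3a*), beta (*Idh3b*) and gamma (*Idh3g*) subunits, and their transcripts did not move in parallel. *Idh3a*, the catalytic subunit, had 728, 839 and 711 CPM in WT and 526, 692 and 628 CPM in *Sirt6* KO, with groups apart on the lower side (log2 fold change -0.30, SE 0.15, edgeR with Benjamini-Hochberg adjusted p = 0.200). *Idh3b* was at 471 ± 64.4 and 469.5 ± 58.5 CPM (log2 fold change -0.0059, SE 0.16). *Idh3g* (NCBI gene 15929, chrX:73778963-73786897) had 359, 393 and 294 CPM in WT and 426, 548 and 513 CPM in *Sirt6* KO, with groups apart on the higher side. Its mean was 349 ± 49.99 against 495 ± 62.7 CPM (SD, n = 3; log2 fold change 0.51, SE 0.16, edgeR with Benjamini-Hochberg adjusted p = 0.0714), which missed the threshold. DESeq2's Wald test on the same counts called it (Benjamini-Hochberg adjusted p = 0.0169), in a test that called 12.5% of all genes higher. After the GC correction its log2 fold change was 0.45 (edgeR with Benjamini-Hochberg adjusted p = 0.121).

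Ratios within a library remove differences in total content between libraries. On the TPM scale, *Idh3g* to *Idh3a* was 0.890, 0.845 and 0.748 in WT 1, 2 and 3, and 1.46, 1.43 and 1.47 in *Sirt6* KO 1, 2 and 3. *Idh3g* to *Idh3b* was 0.830, 0.860 and 0.843 against 1.18, 1.18 and 1.26. In each WT library the gamma subunit was the less abundant transcript of either pair, and in each *Sirt6* KO library the more abundant. The ratio of *Idh3b* to *Idh3a* was also higher in *Sirt6* KO, at 1.17 to 1.24 against 0.887 to 1.07. These ratios are not corrected for GC content. The correction took the fitted log2 fold changes of *Idh3g* and *Idh3a* from 0.51 and -0.30 to 0.45 and -0.22. Of 16 TPM ratios computed over the list, 10 were apart on the higher side, 2 on the lower side and 4 overlapped. The side depends on which gene is the numerator. Among single genes, 19.6% of all tested were apart on the lower side and 20.3% on the higher side. No such share was computed for ratios. Several ratios that were apart held a gene whose own groups did not overlap, such as *Pdp1*, *Idh3g*, *Me3*, *Mpc2* or *Dld*. The ratios are descriptions without a test, and 3 libraries against 3 could give no two-sided exact permutation p under 0.1.

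**Figure D4:**
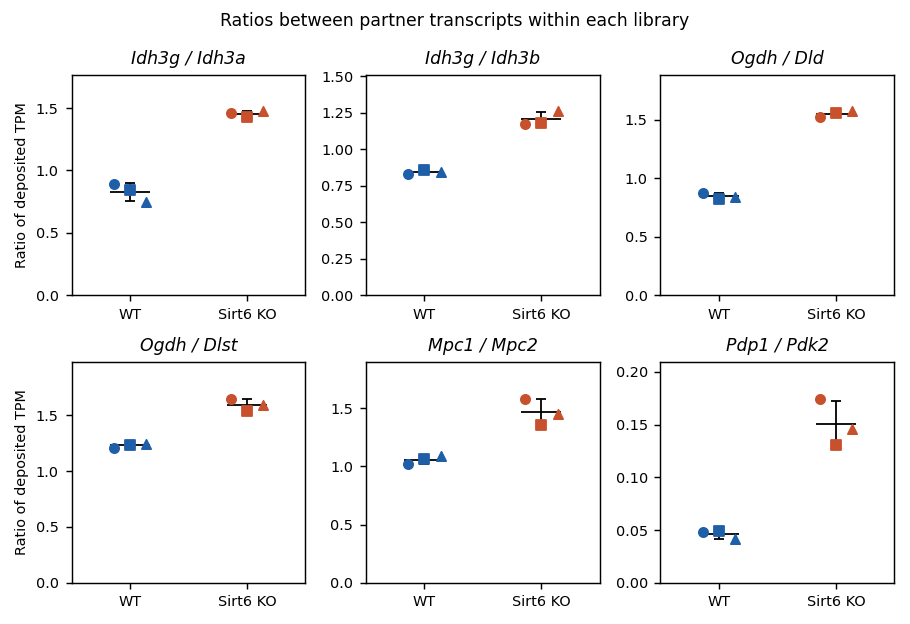
Ratios of deposited TPM (y axis, from 0) between partner transcripts within each library, WT in blue and *Sirt6* KO in orange, with a shape for each replicate (circle 1, square 2, triangle 3), a line at the mean and bars of 1 SD (n = 3). The 6 were picked, after their values were seen, from 16 ratios, and in each the *Sirt6* KO libraries lie above the WT libraries, with *Idh3g* to *Idh3a* near 0.828 in WT and near 1.46 in *Sirt6* KO on average.

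The 2-oxoglutarate dehydrogenase complex is made of E1 (*Ogdh*), E2 (*Dlst*) and the same E3, *Dld*, as PDH. *Ogdh* had 965, 1090.0 and 808 CPM in WT and 1020.0, 1269 and 1136 CPM in *Sirt6* KO, with overlapping groups (log2 fold change 0.26, SE 0.17, edgeR with Benjamini-Hochberg adjusted p = 0.304). *Dlst* was at 323 ± 49.3 and 300.1 ± 43.6 CPM (log2 fold change -0.11, SE 0.17, edgeR with Benjamini-Hochberg adjusted p = 0.686). The TPM ratio of *Ogdh* to *Dld* was 0.872, 0.820 and 0.844 in WT and 1.53, 1.56 and 1.57 in *Sirt6* KO, and that of *Ogdh* to *Dlst* 1.21, 1.24 and 1.25 against 1.65, 1.54 and 1.60. Both ratios varied little within a group and were apart between groups. TPM values are not corrected for GC content, which is 52.5% for *Ogdh* and 40.6% for *Dld*, and the correction took the fitted log2 fold changes closer together, to 0.14 for *Ogdh* and -0.31 for *Dld*. The ratios of *Ogdh*, *Pdp1* and *Mpc1* to their partners were chosen after the values had been seen.

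Succinyl-CoA ligase pairs a common alpha subunit (*Suclg1*) with an ATP-forming (*Sucla2*) or a GTP-forming (*Suclg2*) beta subunit. *Sucla2* had 659, 749.5 and 611 CPM in WT and 443, 579 and 501 CPM in *Sirt6* KO. Its groups were apart, and the gene missed the threshold (log2 fold change -0.41, SE 0.15, edgeR with Benjamini-Hochberg adjusted p = 0.107). It was called by DESeq2 (Benjamini-Hochberg adjusted p = 0.0384), where 13.0% of all genes were called lower, and by edgeR without WT 3 (Benjamini-Hochberg adjusted p = 0.0461). The GC correction took its log2 fold change to -0.19 (edgeR with Benjamini-Hochberg adjusted p = 0.449). *Suclg2* was at 93.1 ± 16.5 and 79.0 ± 6.45 CPM (log2 fold change -0.24, SE 0.15) and passed only without WT 3 (edgeR with Benjamini-Hochberg adjusted p = 0.0384). *Suclg1* was at 329.6 ± 40.0 and 312 ± 29.2 CPM (log2 fold change -0.080, SE 0.14). The TPM ratio of *Sucla2* to *Suclg2* lay between 10.9 and 13.2 in WT and between 9.002 and 11.2 in *Sirt6* KO, so the ATP-forming beta transcript was the more abundant in every library, with overlapping groups.

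Fumarase and the malate dehydrogenases showed no call. *Fh1*, fumarase, had a log2 fold change of -0.058 (SE 0.16), and *Mdh2*, the mitochondrial malate dehydrogenase, one of -0.063 (SE 0.18). *Mdh1*, the cytosolic enzyme of the malate-aspartate shuttle, had 864, 1066 and 482 CPM in WT and 423, 831 and 511 CPM in *Sirt6* KO (log2 fold change -0.45, SE 0.35, edgeR with Benjamini-Hochberg adjusted p = 0.383). The shuttle's aminotransferases, *Got1* in the cytosol and *Got2* in mitochondria, were not called either. *Got1* had 485, 755 and 281 CPM in WT and 167, 422 and 248 CPM in *Sirt6* KO (log2 fold change -0.86, SE 0.43, edgeR with Benjamini-Hochberg adjusted p = 0.194). *Got2* was at 539 ± 144 and 519.8 ± 129 CPM (log2 fold change -0.051, SE 0.25, edgeR with Benjamini-Hochberg adjusted p = 0.904). Without WT 3 the log2 fold change was -0.71 for *Mdh1* and -1.15 for *Got1* (edgeR with Benjamini-Hochberg adjusted p = 0.104 and 0.0673). For *Mdh1* and *Got1*, as for *Idh2*, WT 3 was the low WT library and *Sirt6* KO 2 the high *Sirt6* KO library, which was also their place in the slow-fiber sum; its part in these values was not tested. The TPM ratio of *Got1* to *Got2* was nevertheless apart between groups, at 1.01, 1.27 and 0.820 in WT and 0.479, 0.736 and 0.557 in *Sirt6* KO, whereas that of *Mdh1* to *Mdh2* overlapped.

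Of the malic enzymes, which turn malate into pyruvate, *Me3*, the mitochondrial NADP-dependent form, rose. *Me3* (NCBI gene 109264, chr7:89632284-89854359) had 50.2, 52.3 and 44.5 CPM in the WT libraries and 91.6, 77.5 and 81.8 CPM in the *Sirt6* KO libraries. Every *Sirt6* KO library was above every WT library. Its mean went from 49.0 ± 4.02 to 83.6 ± 7.19 CPM (SD, n = 3), a log2 fold change of 0.77 (SE 0.11, edgeR with Benjamini-Hochberg adjusted p = 0.0132), or 1.71-fold higher, and by p it took place 210 of the genes tested. Leaving out *Sirt6* KO 1 or *Sirt6* KO 3 gave log2 fold changes of 0.70 and 0.79 and edgeR Benjamini-Hochberg adjusted p values of 0.0608 and 0.0723, above the threshold, and the call held in the other 13 of 15 alternative fits, with 0.85 after the GC correction. *Me3* shares 569 exon bases on the opposite strand with the antisense gene A230065N10Rik, so their reads cannot be told apart if strand was not used.

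*Me1*, the cytosolic form, was the most abundant of the 3 malic enzymes at 185 ± 41.3 and 151 ± 32.3 TPM, and did not pass (log2 fold change -0.21, SE 0.25, edgeR with Benjamini-Hochberg adjusted p = 0.589). Its highest value, 390.2 CPM, was in WT 3, and without that library its sign turned to 0.11. *Me2*, the mitochondrial NAD-dependent form, had 4.17, 4.82 and 4.76 CPM against 5.08, 5.35 and 5.16 CPM, with groups apart on the higher side and no call (log2 fold change 0.18, SE 0.15, edgeR with Benjamini-Hochberg adjusted p = 0.422). The TPM ratio of *Me3* to *Me1* was 0.163, 0.176 and 0.0851 in WT and 0.236, 0.289 and 0.255 in *Sirt6* KO.

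*Glud1*, glutamate dehydrogenase, which links glutamate to 2-oxoglutarate, had 142, 158 and 123 CPM in WT and 94.8, 116 and 106 CPM in *Sirt6* KO. The groups were apart and the threshold was missed (log2 fold change -0.42, SE 0.14, edgeR with Benjamini-Hochberg adjusted p = 0.0786). DESeq2 called it (Benjamini-Hochberg adjusted p = 0.0349), as did edgeR without WT 3 (Benjamini-Hochberg adjusted p = 0.022), and the GC correction gave -0.39 (edgeR with Benjamini-Hochberg adjusted p = 0.111).

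Counted over the list, 8 genes had groups that did not overlap on the lower side (23.5%, against 19.6% of all genes tested) and 4 on the higher side (11.8%, against 20.3%). The 8 were *Mpc2*, *Dlat*, *Dld*, *Aco1*, *Idh1*, *Idh3a*, *Sucla2* and *Glud1*, and the 4 were *Pdp1*, *Idh3g*, *Me2* and *Me3*. Without WT 3, 9 of the 34 genes were called lower, against 15.7% of the genes tested in that fit, and 3 were called higher, against 16.7%. Without *Sirt6* KO 2, 1 of the 34 was called lower and 2 higher, with 442 and 431 genes called over the table. After the GC correction 0 genes of the list were called lower, with 4 at an unadjusted p under 0.05, and *Pdp1* and *Me3* were called higher, against 3.52% and 3.45% of all genes. The share of all genes at that unadjusted p in the corrected fit is not given here.

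Other genes around the pathway were read from the same fit, 45 of the 46 listed passing the filter. Of the 45, 4 were lower and 1 was higher, where 8.39% and 7.85% of all genes were, with a median log2 fold change of -0.028. Succinate dehydrogenase, the cycle's enzyme in the respiratory chain, and its assembly factors gave 0 calls in 8 genes by edgeR and by DESeq2 (median log2 fold change -0.046), with 2 at an unadjusted p under 0.05 in edgeR. The 7 pyruvate supply genes gave 0 calls in edgeR, 1 at an unadjusted p under 0.05 and 1 call in DESeq2. The 6 carriers gave 0 by each of these counts. Of all 13801 genes, 2495 lower and 2380 higher ones had an unadjusted p under 0.05 in edgeR. DESeq2 called 13.0% of all genes lower and 12.5% higher. Lipoate is the cofactor bound to the E2 subunits encoded by *Dlat* and *Dlst*, and of 9 genes of its supply 2 were called lower and 1 higher, where 16.2% of all genes were called in either direction. *Glrx5* and *Bola3*, which serve the iron-sulfur clusters needed to make lipoate, were lower: *Glrx5* went from 35.1 ± 2.34 to 24.8 ± 3.30 CPM (log2 fold change -0.50, SE 0.13, edgeR with Benjamini-Hochberg adjusted p = 0.0389) and *Bola3* from 74.5 ± 5.64 to 50.8 ± 8.48 CPM (-0.55, SE 0.14, adjusted p = 0.0397). *Mcat*, of mitochondrial fatty acid synthesis, which supplies the precursor octanoate, rose from 15.1 ± 1.93 to 21.9 ± 2.16 CPM (log2 fold change 0.54, SE 0.14, edgeR with Benjamini-Hochberg adjusted p = 0.0388). *Pcca*, a subunit of propionyl-CoA carboxylase, was also lower (log2 fold change -0.35, SE 0.092, edgeR with Benjamini-Hochberg adjusted p = 0.0435). The calls of these 4 genes held without WT 3, and *Bola3* also without *Sirt6* KO 2. Leaving out any other library lost them, with edgeR Benjamini-Hochberg adjusted p values up to 0.153. After the GC correction *Glrx5* and *Bola3* were still called (edgeR with Benjamini-Hochberg adjusted p = 0.0356 and 0.042), and *Mcat* and *Pcca* were not (0.205 and 0.112).

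Of 6 transcriptional regulators of mitochondrial genes, 2 were lower, where 8.39% of all genes were. *Ppargc1a*, the coactivator PGC-1 alpha, had 764, 1703 and 515 CPM in WT and 45.6, 170 and 92.2 CPM in *Sirt6* KO (log2 fold change -3.28, SE 0.61, edgeR with Benjamini-Hochberg adjusted p = 0.0186). *Gabpa*, a subunit of GABP, went from 43.6 ± 3.19 to 34.1 ± 0.658 CPM (log2 fold change -0.35, SE 0.098, edgeR with Benjamini-Hochberg adjusted p = 0.0493). Without 1 library the *Ppargc1a* value lay between -3.84 and -2.64, and its call was lost without WT 1, WT 2, *Sirt6* KO 1 or *Sirt6* KO 3, with an edgeR Benjamini-Hochberg adjusted p of up to 0.0861. Of the 6 fits that left a library out, the *Gabpa* call held in the one without WT 3 (edgeR with Benjamini-Hochberg adjusted p = 0.0134) and not after the GC correction (-0.071, adjusted p = 0.669). *Nrf1*, *Esrra*, *Esrrg* and *Ppargc1b* did not pass, with log2 fold changes of 0.28, 0.13, -0.71 and -0.24. Beside the median of -0.27 for the 34 genes, that of 16 beta-oxidation genes was -0.47 with 1 called lower, that of 87 nuclear oxidative phosphorylation genes -0.084 with 8 called lower and 3 higher (8.39% and 7.85% of all genes), and that of 9 glycolytic genes 0.30 with 0 calls in edgeR, 3 at an unadjusted p under 0.05 and 3 calls in DESeq2. After the GC correction these medians were -0.22, -0.43, -0.16 and 0.073 in the same order, with 2 lower and 0 higher calls left among the 87 oxidative phosphorylation genes and 0 among the beta-oxidation and glycolytic genes, against 3.52% and 3.45% of all genes. Before the correction, 2495 lower and 2380 higher of all 13801 genes had an unadjusted p under 0.05 in edgeR. DESeq2 called 13.0% of all genes lower and 12.5% higher. The differences between lists were not tested.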

How the data were processed

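RNA-seq of GAS muscle from 3 WT and 3 *Sirt6* KO mice was analysed from 1 deposited table of 24532 genes. The authors made poly-A selected libraries, and the submitters' processing notes name HISAT2 2.1.0, Bowtie2 2.3.4.1, StringTie 2.1.3b and the mm10 build; the study's reporting summary names another aligner and another floxed line than the methods do. The library kit also differs between methods and labels. The authors deposited whole-number read counts per gene without normalization between libraries, FPKM values scaled to gene length and library size, and TPM values scaled to a fixed sum per library. No column of group comparisons was used.

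The counts were fitted with edgeR 4.0.16 in R 4.3.3 (filterByExpr, TMM, quasi-likelihood fit, group as the one factor, Benjamini-Hochberg adjustment over 13801 genes, threshold 0.05). Standard errors were derived from the F statistic. The common biological coefficient of variation was 24.1%. TPM values were used for levels and ratios between genes, without a test. Alternatives were limma 3.58.1 on quantile-normalized log2 values of the FPKM with a pseudocount of 1 or 0.1, DESeq2 1.42.0, its size factors alone, no filter, filters of 10 counts per library or of an FPKM over 1 anywhere, a replicate block, and each library left out. A GC correction (lowess trend per library, span 0.3, GC of the longest GENCODE transcript, known for 99.3% of genes tested) was added after the data were seen.

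Among the 34 genes, values in every library were given for those that passed the test, for those whose groups did not overlap, and for the one with the largest change in each step; *Cs*, *Pdp2* and ratios with other partners were added after their values were seen. The 34 genes and the other lists were chosen with earlier results of these data known. The result of 1 gene outside the 34 is not reported here. Coordinates and sequences are RefSeq's on GRCm38.p6, matched by gene identifier; mm10 is GRCm38. Within a group the labels tell the animals apart only by number, so p-values measure the spread between these 6 libraries.

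Markers of other cells, as summed CPM over the 6 libraries, were 46.6 to 297 (erythroid), 121 to 223 (adipocyte), 12.5 to 51.8 (macrophage, 1 gene lower), 468 to 864 (fibroblast), 10.6 to 32.1 (Schwann cell, 1 gene lower) and 136 to 250 (endothelial), with 5 genes a list; their part in the results was not tested.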

Additional observations from a re-analysis of the deposited data

How the results depend on the processing

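With DESeq2's Wald test, 1801 genes were lower and 1730 higher (edgeR 1158 and 1084), and 5 of the 34 genes were lower, *Sucla2* and *Glud1* joining *Mpc2*, *Dlat* and *Dld*. After the GC correction 483 genes were lower and 473 higher, and 0 of the 34 were lower. limma on log2(FPKM + 0.1) left 1 of the 34 lower, with 976 genes lower and 1168 higher over the table. Leaving out 1 library gave 2 to 2219 lower and 6 to 2363 higher genes over the table, and 0 to 9 lower and 1 to 3 higher among the 34; over the table these were 259 and 181 without WT 1, 153 and 96 without WT 2, 2219 and 2363 without WT 3, 2 and 6 without *Sirt6* KO 1, 442 and 431 without *Sirt6* KO 2, and 5 and 8 without *Sirt6* KO 3. Among the 34, 9 were lower without WT 3, 1 without *Sirt6* KO 2 and 0 without any other library; 1 was higher without *Sirt6* KO 1 or 3, 3 without WT 3 and 2 otherwise. A fit without a library has fewer samples, and the cause was not tested further. The other alternatives kept the counts within 1.5 times, and the median of the 34 genes stayed between -0.35 and -0.19.

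Signs turned for 7 genes, none of them called. After the GC correction *Pdk2* was at -0.13, *Idh3b* at 0.065 and *Suclg1* at 0.064, and without a filter *Idh3b* was at 0.0023. Over the fits that left out a library, log2 fold changes were -0.11 to 0.080 for *Idh3b*, -0.16 to 0.053 for *Fh1*, -0.24 to 0.15 for *Got2*, -0.19 to 0.060 for *Mdh2*, -0.16 to 0.0084 for *Suclg1* and -0.35 to 0.11 for *Me1*.

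The labels do not say whether same-numbered libraries were paired, and the correlations of their deviations were -0.11, 0.26 and 0.16. Those of differently numbered libraries lay between -0.34 and 0.21. With the replicate number as a block, 1018 genes were lower and 904 higher, and 3 of the 34 were lower and 2 higher. With DESeq2's size factors the median over all genes moved by 0.0022. *Pdk3*, under 1 CPM in every library, had the lowest level of the 34 genes, and its fold change is the one that depth limits most.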
